A study of Mus musculus with 16 samples.

Results

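The genes of 9 steroid receptors were followed in the urogenital sinus (UGS) epithelium of fetal male mice after maternal exposure to the dioxin TCDD or to vehicle. They were taken by gene name from the 55487 genes of the count table and fall into 2 kinds. *Esr1*, *Esr2*, *Pgr*, *Nr3c1* and *Nr3c2* encode nuclear receptors for estrogen, progesterone, glucocorticoid and mineralocorticoid, and *Paqr5*, *Paqr6*, *Paqr7* and *Paqr8* encode membrane progestin receptors. The set was chosen by name, but with the level of *Paqr5* in these pools, higher with TCDD, already known, so for that gene the values are a description and carry no test, and the counts of calls below are over the 8 other genes.

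A nuclear steroid receptor is held by chaperones until its hormone binds, and then acts on DNA as a transcription factor together with coregulators. The membrane progestin receptors belong to the progestin and adipoQ receptor (PAQR) family, sit in the cell membrane and pass a progestin signal on without entering the nucleus. They are known from ovary, testis, brain and kidney. TCDD acts through the aryl hydrocarbon receptor (AHR), a transcription factor that induces cytochrome P450 enzymes which also oxidize steroids. Prostatic buds grow out of the UGS epithelium before birth, and nuclear steroid receptors in the mesenchyme around it are known to take part in budding.

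RNA-seq was carried out on epithelium from C57BL/6J fetuses collected on E16.75 (days of embryonic development). In the TCDD group the dams had been given TCDD by mouth on E13.5 (5 µg/kg in the sample labels, 1 µg/kg in the text on the design), and in the vehicle group corn oil (5 mL/kg). A later day of dosing stands in the results text of the study, and the day in the labels is used here. Each group had 4 replicates, and a replicate was a pool of 5 or 6 epithelia freed of mesenchyme by enzymes and dissection, so that a replicate is neither 1 animal nor, as far as the labels say, 1 litter. A pool is a mixture of cells, and in such bulk samples fewer cells of a type and less RNA per cell cannot be told apart.

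Both lanes together gave 22254896 to 26740656 counts per pool in the TCDD group and 25917911 to 28146766 in the vehicle group. TCDD replicate 1 stood apart: its chi-square per gene against the other TCDD pools was 35.0 to 54.1, against 14.5 to 22.2 among those 3 pools and 10.1 to 20.1 among the vehicle pools. The authors left out an outlier TCDD sample without giving its number. It was taken to be this pool, whose description label alone names no comparison table. Results are therefore given first for TCDD replicates 2 to 4 against 4 vehicle pools and then for all 8 pools. All TCDD pools carried the response of AHR targets, with *Cyp1b1* at 321 to 352 CPM in the 4 TCDD pools and 7.48 to 12.1 CPM in the vehicle pools. CPM are counts relative to the size of the library, scaled by the trimmed mean of M values (TMM). Summed over 10 epithelial markers, the level was 7999 to 8839 CPM in TCDD replicates 2 to 4, 8848 CPM in TCDD replicate 1 and 7288 to 7546 CPM in the vehicle pools, and 4 of the 10 rose. Summed over 13 mesenchyme markers, it was 424 to 565 CPM in TCDD replicates 2 to 4, 646 CPM in TCDD replicate 1 and 629 to 797 CPM in the vehicle pools. *Fn1* made up most of this sum, at 340 to 483 CPM in TCDD replicates 2 to 4. It was at 489 CPM in TCDD replicate 1 and 452 to 600 CPM in the vehicle pools. Of the 9 mesenchyme markers that could be tested 7 were lower, and 2 over all 8 pools, and *Twist2* had no count in TCDD replicates 2 to 4. Across all 14233 tested genes, 23.0% were called, 11.9% higher and 11.2% lower, by edgeR's quasi-likelihood test (adjusted p by Benjamini-Hochberg, threshold 0.05). Over all 8 pools 13.4% of 14051 genes were called, 7.41% higher and 6.00% lower.

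Promoter windows, from 250 bases before to 50 bases after a transcription start, were taken from RefSeq (GRCm38.p6) for 8 of the 9 genes. The windows at hand did not cover *Nr3c1*. The windows of the 3 membrane receptor genes with the larger values in the TCDD pools are shown first, because TCDD acts through a DNA-binding factor, and capitals mark GGGCGG on either strand, the box bound by Sp1. *Paqr5* is read from chr9:62026741-62027040 (minus strand), *Paqr6* from chr3:88364339-88364638 (plus strand) and *Paqr8*, for the first of its 2 starts, from chr1:20890298-20890597 (plus strand).
Paqr5: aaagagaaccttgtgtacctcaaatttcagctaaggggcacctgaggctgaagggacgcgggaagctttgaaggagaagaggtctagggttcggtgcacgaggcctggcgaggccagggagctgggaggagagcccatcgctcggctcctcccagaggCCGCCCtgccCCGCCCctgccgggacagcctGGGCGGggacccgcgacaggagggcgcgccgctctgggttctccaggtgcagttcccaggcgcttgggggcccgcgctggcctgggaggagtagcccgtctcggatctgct
Paqr6: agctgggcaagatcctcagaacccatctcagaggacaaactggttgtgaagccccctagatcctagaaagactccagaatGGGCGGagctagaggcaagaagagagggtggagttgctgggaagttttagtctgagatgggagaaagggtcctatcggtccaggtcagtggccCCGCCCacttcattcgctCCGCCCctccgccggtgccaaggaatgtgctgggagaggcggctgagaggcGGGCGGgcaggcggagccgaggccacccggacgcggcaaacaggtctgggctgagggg
Paqr8: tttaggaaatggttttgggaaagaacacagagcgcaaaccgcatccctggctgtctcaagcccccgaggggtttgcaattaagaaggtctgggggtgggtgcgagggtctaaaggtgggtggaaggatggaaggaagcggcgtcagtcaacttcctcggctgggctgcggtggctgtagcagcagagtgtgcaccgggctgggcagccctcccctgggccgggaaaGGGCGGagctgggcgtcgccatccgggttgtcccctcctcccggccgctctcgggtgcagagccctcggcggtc

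The *Paqr5* window had a GC content of 67.7% and held 21 CpG, against medians of 52.7% and 7 over all 32851 windows at hand. This was not particular to *Paqr5*: the second window of *Paqr7*, which was not called, had 67.0% and 21 CpG. The lowest GC content among the windows of the receptor genes was 43.7%, with 6 CpG, in *Pgr*. GGGCGG was found 3 times in the *Paqr5* window, 4 times in that of *Paqr6* and once in that of *Paqr8*. On either strand it was in a window of 6 of the 8 genes, *Esr1* and *Esr2* being without it, and in one of 38.2% of the 27025 genes with an entry. GCGTG, the core that AHR binds with its partner ARNT, was in none of the 3 windows printed in full. It was in a window of 3 of the 8 genes (37.5%), a share close to the 35.2% of all genes, and none of the 3 was called by the test. The stretches around it, with the core in capitals, come from *Esr1* (second start, chr10:4710152-4710176), *Nr3c2* (chr8:76902107-76902131) and *Paqr7* (second start, chr4:134496949-134496973), all printed from the plus strand, on which CACGC marks a core on the minus strand.
Esr1: cacatccacaCACGCtctgccttga
Nr3c2: ggcccgcacaGCGTGgagccttgtt
Paqr7: cgggcttgggGCGTGgccgctaccc

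The longer AHR element TTGCGTG, which contains the core, was in no window of the 8 genes and in one of 1.35% of all genes. The palindromic estrogen response element and the palindromic element shared by glucocorticoid and progesterone receptors, each searched without a mismatch, were in none of them either, and in a window of 0.074% and 0.0111% of all genes. A match is a description of letters, and its absence says only that these letters are not in these 300 bases.

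The membrane progestin receptor genes *Paqr5*, *Paqr6* and *Paqr8* were higher in TCDD replicates 2 to 4 than in the vehicle pools, while the fourth, *Paqr7*, did not pass the test. Of the nuclear receptor genes, none was called, and *Nr3c1*, the most abundant of them, had nearly the same level in both groups. Of the 8 genes other than *Paqr5*, 7 had enough counts to be tested, and 2 of these were called, both higher (28.6%, against 23.0% of all tested genes). At an unadjusted p under 0.05 there were 2 higher and 1 lower (*Pgr*), and DESeq2 also called 2 higher and 0 lower (19.5% of all genes it tested). TREAT, which asks for more than a 1.5-fold change, called 0 of the 7 (4.03% of all tested genes). Over all 8 pools, *Paqr6* alone of the 7 was called (14.3%, against 13.4% of all tested genes).

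**Figure D1:**
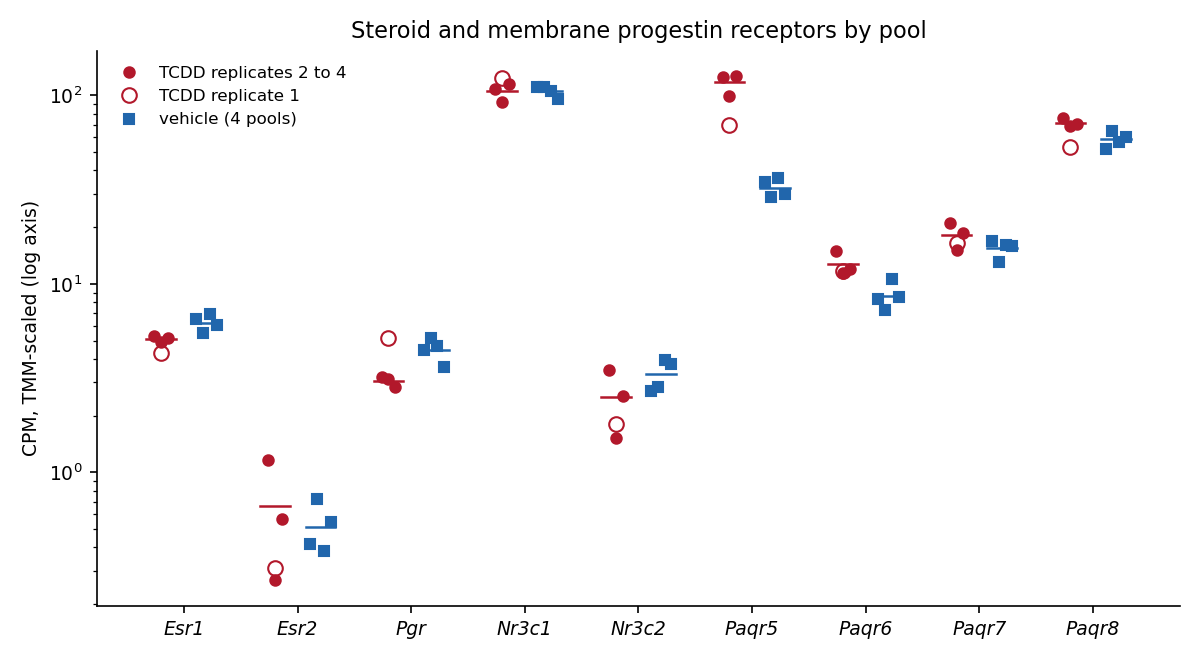
Level of each of the 9 receptor genes in each pool, in TMM-scaled CPM on a log axis. Filled circles are TCDD replicates 2 to 4, open circles TCDD replicate 1 and squares the 4 vehicle pools, and lines mark the means without TCDD replicate 1. *Paqr5* is at 69.9 to 127 CPM in the TCDD pools and 28.9 to 36.3 CPM in the vehicle pools, whereas the *Nr3c1* points of both groups overlap around 105 CPM.

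*Paqr5* (ENSMUSG00000032278, chromosome 9, 61953481 to 62026856, minus strand, GRCm38) encodes the membrane progestin receptor gamma. It was at 69.9, 125, 99.8 and 127 CPM in TCDD replicates 1 to 4, against 34.7, 28.9, 36.3 and 29.8 CPM in vehicle replicates 1 to 4. No vehicle pool reached the level of any TCDD pool, with TCDD replicate 1 the lowest of its group. The mean was 117 ± 15.1 CPM in TCDD replicates 2 to 4 (SD, n = 3) and 32.4 ± 3.64 CPM in the vehicle pools (SD, n = 4). The fitted difference was a log2 fold change of 1.85 (SE 0.103), or 3.61-fold, and over all 8 pools 1.70 (SE 0.182), or 3.25-fold. Among the tested genes, 141 had a larger log2 fold change than *Paqr5* over 7 pools and 116 over 8 pools.

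Like *Paqr5*, the summed markers of urothelium and of squamous epithelium were higher in the TCDD pools. The summed level of 7 urothelial markers was 3369 to 4160 CPM in TCDD replicates 2 to 4, 2118 CPM in TCDD replicate 1 and 1412 to 1799 CPM in the vehicle pools, and all 7 rose. The summed level of 11 squamous markers was 4259 to 5027 CPM in TCDD replicates 2 to 4, 3465 CPM in TCDD replicate 1 and 2197 to 3077 CPM in the vehicle pools, and 7 of the 10 that could be tested rose. For comparison, 11.9% of all tested genes were called higher. No marker of either list was without counts in all pools of a group. In both sums, as for *Paqr5*, TCDD replicate 1 lay between the other TCDD pools and the vehicle pools. Single squamous markers differed. *Ivl* lay between too (82.7 CPM in TCDD replicate 1). *Krt1* and *Krt10* were highest in TCDD replicate 1, at 492 and 102 CPM. In TCDD replicates 2 to 4 they were at 356 to 414 and 52.8 to 65.6 CPM. *Krt4*, the largest part of the squamous sum, was at 2170 CPM in TCDD replicate 1, within the vehicle range. It was not called (edgeR adjusted p = 0.0627). The part of the urothelial and squamous markers in the *Paqr5* values was not tested.

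**Figure D2:**
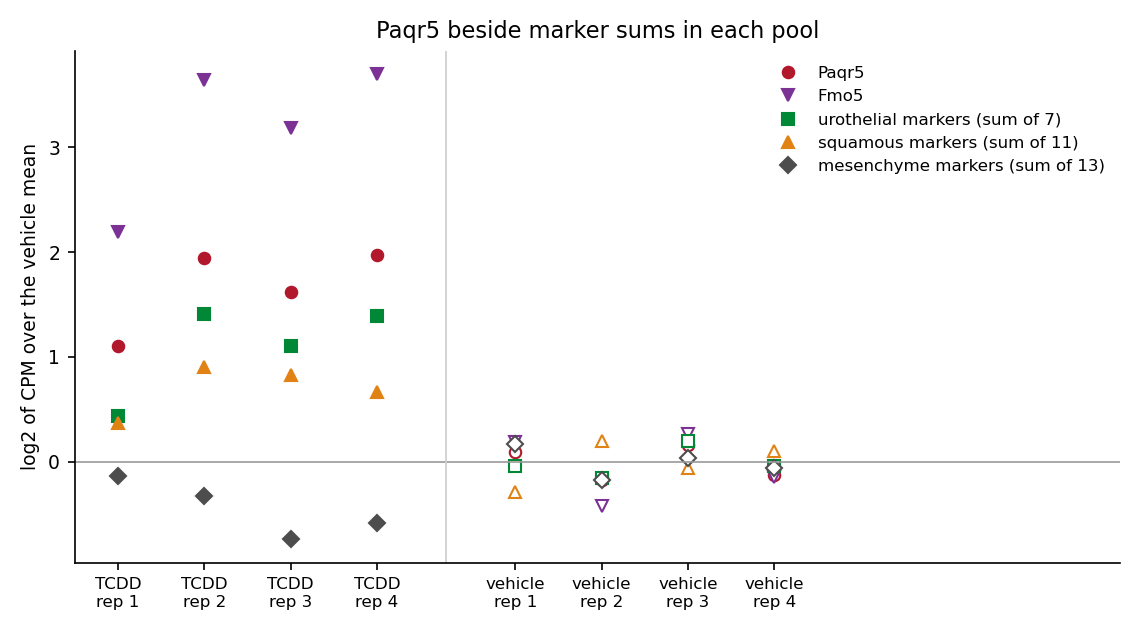
*Paqr5*, *Fmo5* and the summed levels of urothelial, squamous and mesenchyme markers in each pool, as the log2 of CPM over the mean of the 4 vehicle pools. Filled points are TCDD pools and open points vehicle pools. *Paqr5*, at 69.9 to 127 CPM in the TCDD pools, is highest in TCDD replicates 2 and 4, and TCDD replicate 1 is the lowest of the TCDD pools, as for *Fmo5* and the urothelial sum.

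The genes whose pattern was most like that of *Paqr5* were looked for among all tested genes by Pearson's r over 8 pools, as a description. On log2(CPM + 0.5), where the difference between the groups sets most of the spread, they were *Fmo5* (r = 0.999), *Arpc1a* (r = 0.996), *Ccr4* (r = 0.996), *Sytl2* (r = 0.995) and *Ptgs2* (r = 0.995). *Fmo5* encodes a flavin monooxygenase, *Sytl2* a protein of vesicle transport and *Ptgs2* the inducible cyclooxygenase of prostaglandin synthesis. With each group centred on its own mean, where the 8 values follow mainly the low TCDD replicate 1, they included *Sptssb* (r = 0.998), *Fmo5* (r = 0.992), *Fech* (r = 0.991) and *Cep85* (r = 0.988). Without centring, *Sptssb* had r = 0.941, but *Fech* and *Cep85* had only r = 0.26 and −0.33. These genes were thus like *Paqr5* within the groups and did not share its difference between them. *Fmo5* was on both lists. It was at 396, 1082, 789 and 1126 CPM in TCDD replicates 1 to 4, against 99.3, 64.8, 105 and 78.8 CPM in vehicle replicates 1 to 4. As for *Paqr5*, the order within each group was the same: replicates 4, 2, 3 and 1 from high to low in the TCDD pools, and 3, 1, 4 and 2 in the vehicle pools. All these values share libraries and scaling.

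*Paqr6* (ENSMUSG00000041423, chromosome 3, 88364584 to 88368541, plus strand) encodes the membrane progestin receptor delta. It was at 11.8, 14.9, 11.5 and 12.0 CPM in TCDD replicates 1 to 4, against 8.28, 7.27, 10.6 and 8.52 CPM in vehicle replicates 1 to 4. The groups did not overlap, with or without TCDD replicate 1, and the highest pool of all was TCDD replicate 2. *Paqr6* averaged 12.8 ± 1.82 CPM in TCDD replicates 2 to 4 and 8.66 ± 1.38 CPM in the vehicle pools, and rose with a log2 fold change of 0.56 (SE 0.147, edgeR adjusted p = 0.0126). Over all 8 pools the log2 fold change was 0.54 (SE 0.141, edgeR adjusted p = 0.0261). Without TCDD replicate 2 the log2 fold change was 0.44 and the call was lost (edgeR adjusted p = 0.0675).

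*Paqr8* (ENSMUSG00000025931, chromosome 1, 20890606 to 20939650, plus strand) encodes the membrane progestin receptor beta. It was at 53.4, 75.5, 68.4 and 70.4 CPM in TCDD replicates 1 to 4, against 52.2, 65.0, 56.8 and 60.3 CPM in vehicle replicates 1 to 4. TCDD replicates 2 to 4 lay above every vehicle pool, but TCDD replicate 1 lay among them. *Paqr8* averaged 71.4 ± 3.63 CPM in TCDD replicates 2 to 4 and 58.6 ± 5.42 CPM in the vehicle pools, and rose by a log2 fold change of 0.28 (SE 0.0837, edgeR adjusted p = 0.0242). The call was lost over all 8 pools (log2 fold change 0.19, SE 0.106, edgeR adjusted p = 0.267). It was also lost without TCDD replicate 2 or 4 or without vehicle replicate 1 or 3 (edgeR adjusted p = 0.0872, 0.0642, 0.0793 and 0.0737).

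*Paqr7* (ENSMUSG00000037348, chromosome 4, 134496697 to 134510235, plus strand) encodes the membrane progestin receptor alpha, known for its part in oocyte maturation in fish. It was at 16.4, 21.1, 15.1 and 18.6 CPM in TCDD replicates 1 to 4, against 16.9, 13.1, 16.1 and 15.9 CPM in vehicle replicates 1 to 4. The groups overlapped. The log2 fold change of 0.24 (SE 0.128) did not pass the test (edgeR adjusted p = 0.208), and 2 SE on either side reach from −0.02 to 0.50, so these pools leave room for a change of up to 0.50. Over all 8 pools the log2 fold change was 0.20 (edgeR adjusted p = 0.323). It was 0.12 without TCDD replicate 2 (edgeR adjusted p = 0.578) and 0.35 without TCDD replicate 3 (edgeR adjusted p = 0.0683).

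Compared per kb of exon, the membrane receptor genes took another order with TCDD. In TCDD replicates 2 to 4 *Paqr5* led with 29.6 ± 3.81 CPM per kb, followed by *Paqr8* (13.0 ± 0.662), *Paqr6* (5.27 ± 0.751) and *Paqr7* (4.29 ± 0.709). In the vehicle pools *Paqr8* led with 10.7 ± 0.988 CPM per kb, followed by *Paqr5* (8.20 ± 0.921), *Paqr7* (3.64 ± 0.391) and *Paqr6* (3.56 ± 0.567). The pool ranges of *Paqr6* and *Paqr7* overlapped in both groups, whereas those of the other neighbours in each order did not. *Paqr5* made up 49.0, 56.0, 54.9 and 59.1% of the summed level of the 4 genes in TCDD replicates 1 to 4, against 34.2, 28.9, 33.2 and 29.3% in vehicle replicates 1 to 4. The summed level was 36.1 CPM per kb in TCDD replicate 1, 46.0 to 56.4 in TCDD replicates 2 to 4 and 25.2 to 27.6 in the vehicle pools. Without *Paqr5* it was 18.4 CPM per kb in TCDD replicate 1, 20.7 to 24.8 in TCDD replicates 2 to 4 and 16.9 to 18.5 in the vehicle pools. TCDD replicate 1 was thus above every vehicle pool in the full sum and among them once *Paqr5* was left out.

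**Figure D3:**
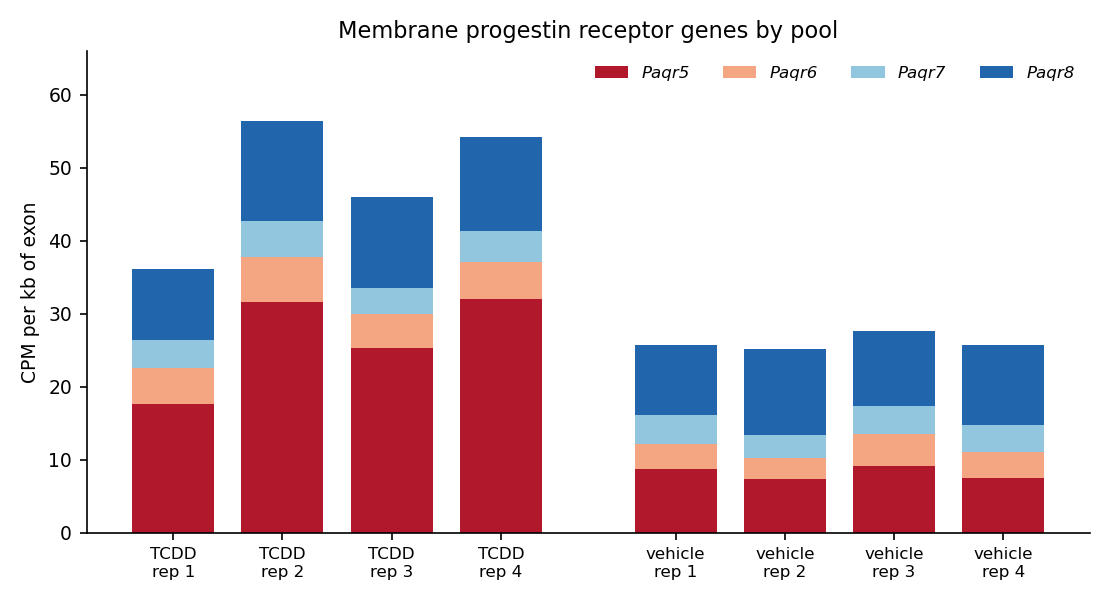
Levels of *Paqr5* to *Paqr8* in each pool as stacked bars, in CPM per kb of exon. The *Paqr5* part is 49.0 to 59.1% of the bar in the 4 TCDD pools and 28.9 to 34.2% in the 4 vehicle pools.

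*Pgr* (ENSMUSG00000031870, chromosome 9, 8899833 to 8968611, plus strand) encodes the nuclear progesterone receptor, and its values ran lower in TCDD replicates 2 to 4. It was at 5.18, 3.22, 3.12 and 2.84 CPM in TCDD replicates 1 to 4, against 4.47, 5.15, 4.70 and 3.63 CPM in vehicle replicates 1 to 4. TCDD replicates 2 to 4 lay below every vehicle pool, but TCDD replicate 1 was the highest of all 8 pools. The means were 3.06 ± 0.195 CPM in TCDD replicates 2 to 4 and 4.49 ± 0.639 CPM in the vehicle pools, at 70 to 80 counts a pool and 100 to 143 counts a pool over both lanes. The log2 fold change of −0.56 (SE 0.193) just missed the threshold (edgeR adjusted p = 0.0522). It passed without vehicle replicate 4 (log2 fold change −0.65, edgeR adjusted p = 0.0247), and over all 8 pools it was −0.33 (SE 0.217, edgeR adjusted p = 0.367).

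*Esr1* (ENSMUSG00000019768, chromosome 10, 4611593 to 5005614, plus strand) encodes estrogen receptor alpha. It was at 4.30, 5.31, 4.90 and 5.19 CPM in TCDD replicates 1 to 4, against 6.50, 5.47, 6.88 and 6.02 CPM in vehicle replicates 1 to 4. Every TCDD pool lay below every vehicle pool. The log2 fold change of −0.28 (SE 0.155) nevertheless did not pass the test (edgeR adjusted p = 0.229), nor did that of −0.33 over all 8 pools (SE 0.147, edgeR adjusted p = 0.163). Among the 7 testable genes other than *Paqr5*, the 3 TCDD pools lay above the vehicle pools for 2 and below them for 2, and 31.4% of all tested genes had groups that did not overlap. Over all 8 pools this held for *Paqr6* (above) and *Esr1* (below), and for 18.4% of all tested genes.

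*Esr2* (ENSMUSG00000021055, chromosome 12, 76120419 to 76177259, minus strand) encodes estrogen receptor beta, which is known from the epithelium of the adult prostate. It was at 0.310, 1.17, 0.267 and 0.568 CPM in TCDD replicates 1 to 4, against 0.419, 0.720, 0.382 and 0.544 CPM in vehicle replicates 1 to 4. These values rest on 6 to 29 counts a pool in the TCDD group and 10 to 20 in the vehicle group over both lanes, fell below the filter on low counts and overlapped, and a difference was not detectable at this depth. With the lanes summed instead of averaged *Esr2* passed the filter, with a log2 fold change of 0.37 (edgeR adjusted p = 0.633).

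*Nr3c1* (ENSMUSG00000024431, chromosome 18, 39410545 to 39519421, minus strand) encodes the glucocorticoid receptor. It was at 124, 108, 92.1 and 115 CPM in TCDD replicates 1 to 4, against 111, 110.2, 106 and 95.4 CPM in vehicle replicates 1 to 4. The highest and the lowest pool were both TCDD pools, and the groups overlapped. The log2 fold change was −0.01 (SE 0.0876, edgeR adjusted p = 0.953), with 2 SE on either side reaching from −0.19 to 0.17, and over all 8 pools it was 0.06 (SE 0.0914, edgeR adjusted p = 0.747).

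*Nr3c2* (ENSMUSG00000031618, chromosome 8, 76899442 to 77245012, plus strand) encodes the mineralocorticoid receptor, which aldosterone activates in salt-transporting epithelia. It was at 1.82, 3.50, 1.51 and 2.54 CPM in TCDD replicates 1 to 4, against 2.69, 2.84, 3.94 and 3.77 CPM in vehicle replicates 1 to 4. TCDD replicate 2 lay among the vehicle pools, and the other TCDD pools lay below them. The log2 fold change of −0.38 (SE 0.267) did not pass the test (edgeR adjusted p = 0.343), and over all 8 pools it was −0.49 (SE 0.265, edgeR adjusted p = 0.264). It was −0.69 without TCDD replicate 2 (edgeR adjusted p = 0.109) and −0.14 without TCDD replicate 3 (edgeR adjusted p = 0.755).

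**Figure D4:**
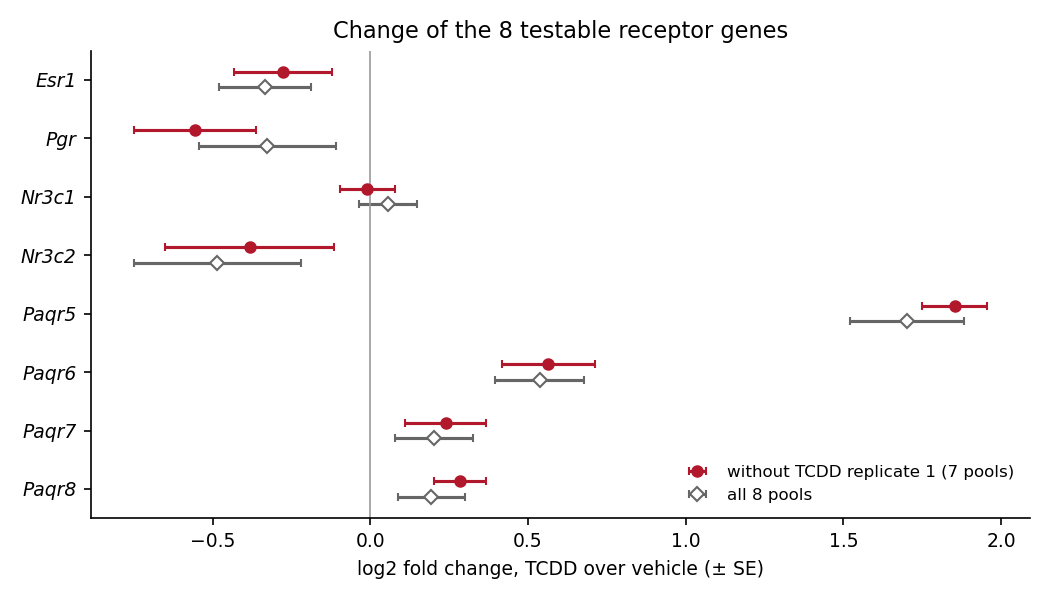
Log2 fold change of TCDD over vehicle for the 8 receptor genes with enough counts, with the SE of the fit as error bars. Circles leave out TCDD replicate 1 and diamonds use all 8 pools. *Paqr5* lies at 1.85 and 1.70, *Paqr6* at 0.56 and 0.54, and the estimates of *Pgr* differ most among the nuclear receptors, at −0.56 and −0.33.

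Per kb of exon, *Nr3c1* stood far above the other nuclear receptor genes, with 13.7 ± 1.52 CPM per kb in TCDD replicates 2 to 4 and 13.7 ± 0.929 CPM per kb in the vehicle pools. It made up 89.5 to 92.6% of the summed level of the 5 genes in the 4 TCDD pools and 88.5 to 90.4% in the vehicle pools. *Pgr* was at 0.358 ± 0.0228 CPM per kb in TCDD replicates 2 to 4 and 0.525 ± 0.0747 CPM per kb in the vehicle pools. *Nr3c2* was at 0.389 ± 0.153 and *Esr1* at 0.376 ± 0.0153 CPM per kb in TCDD replicates 2 to 4, against 0.511 ± 0.0981 and 0.455 ± 0.0447 CPM per kb in the vehicle pools. The pool ranges of these 3 genes overlapped in both groups. *Esr2* was the lowest at 0.198 ± 0.136 CPM per kb in TCDD replicates 2 to 4 and 0.153 ± 0.0452 CPM per kb in the vehicle pools, and its range overlapped those of *Nr3c2* and *Pgr* in the TCDD pools but that of no other gene in the vehicle pools. Over all 9 genes, *Paqr5* led TCDD replicates 2 to 4, ahead of *Nr3c1* and *Paqr8*, whose ranges overlapped, whereas *Nr3c1* led the vehicle pools. The mesenchyme marker sums given above were also lower in TCDD replicates 2 to 4, and in TCDD replicate 1, where *Pgr* was highest and *Esr1* lowest of all pools, the sum was within the vehicle range. Their part in the *Pgr* and *Esr1* values was not tested.

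Of 5 tested relatives of the membrane progestin receptors within the PAQR family, 3 rose and 2 did not pass the test (median log2 fold change 0.33, against −0.00 over all tested genes), and over 8 pools 2 rose. Over all tested genes, 11.9% were called higher and 11.2% lower, and over 8 pools 7.41% and 6.00%. *Adipor2*, a receptor for adiponectin, was at 172, 231, 187 and 238 CPM in TCDD replicates 1 to 4, against 148, 145, 152 and 135 CPM in vehicle replicates 1 to 4. All 4 TCDD pools lay above the vehicle pools, with a log2 fold change of 0.59 (SE 0.0870, edgeR adjusted p = 2.26e-04; edgeR adjusted p = 0.00615 over 8 pools). *Adipor1*, the other adiponectin receptor, rose by a log2 fold change of 0.33 (edgeR adjusted p = 0.00371; 0.00770 over 8 pools). *Paqr3*, which encodes a Golgi protein that holds back RAF kinase, rose by 0.34 on the log2 scale (edgeR adjusted p = 0.0357), but not over 8 pools (edgeR adjusted p = 0.202), nor when any 1 of the 7 pools except vehicle replicate 2 was left out (edgeR adjusted p up to 0.127). *Mmd* had a log2 fold change of −0.44 (edgeR adjusted p = 0.105) and passed the test as lower without TCDD replicate 3 (edgeR adjusted p = 0.0491), and *Paqr4* had one of −0.09 (edgeR adjusted p = 0.777). *Paqr9*, another receptor that binds progestins, was at 0.0758 to 0.201 CPM in TCDD replicates 2 to 4 and 0 to 0.268 CPM in the vehicle pools, too low to test.

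Among other membrane proteins that bind steroids, 1 of 4 tested genes rose, as did 11.9% of all tested genes. The gene that rose was *Pgrmc1*, which encodes a heme-binding partner of cytochrome P450 enzymes. It was at 156, 162, 161 and 173 CPM in TCDD replicates 1 to 4, against 131, 134, 141 and 135 CPM in vehicle replicates 1 to 4. The groups did not overlap, and the log2 fold change was 0.28 (SE 0.0674, edgeR adjusted p = 0.00701; 0.0137 over 8 pools). Its paralog *Pgrmc2* had a log2 fold change of −0.04 (SE 0.0762, edgeR adjusted p = 0.744). *Gper1*, a membrane receptor for estrogen, was at 0 to 0.121 CPM in TCDD replicates 2 to 4 and 0 to 0.0699 CPM in the vehicle pools.

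Genes known as progesterone receptor targets in the uterus did not move one way: of 8 tested, 3 rose and 1 fell (median log2 fold change 0.26). Among all tested genes 11.9% rose and 11.2% fell. *Areg*, which encodes the growth factor amphiregulin, was at 11.8, 13.4, 19.8 and 18.5 CPM in TCDD replicates 1 to 4, against 3.39, 6.69, 5.47 and 4.10 CPM in vehicle replicates 1 to 4. The groups did not overlap, and the log2 fold change was 1.81 (SE 0.210, edgeR adjusted p = 7.18e-05). *Bmp2*, a bone morphogenetic protein, rose by 0.88 and the transcription factor gene *Gata2* by 0.71 on the log2 scale (edgeR adjusted p = 0.00199 and 0.0168), *Bmp2* not over 8 pools (edgeR adjusted p = 0.118) and *Gata2* not without TCDD replicate 2 or 4 (edgeR adjusted p up to 0.0664). *Lrp2*, which encodes megalin, an uptake receptor for carriers of steroids and vitamins, was at 9.74, 9.81, 5.44 and 7.12 CPM in TCDD replicates 1 to 4, against 30.5, 20.4, 30.1 and 24.3 CPM in vehicle replicates 1 to 4. It fell, with a log2 fold change of −1.81 (SE 0.199, edgeR adjusted p = 6.77e-05).

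Of genes known as estrogen receptor targets, 9 of the 13 in the table could be tested, of which 2 rose and 5 fell (median log2 fold change −0.58), and over 8 pools 1 rose and 2 fell. For all tested genes the shares were 11.9% higher and 11.2% lower, and over 8 pools 7.41% and 6.00%. *Areg*, which is also on this list, and *Xbp1*, a transcription factor gene of the unfolded protein response (log2 fold change 0.36, edgeR adjusted p = 0.0224), rose. *Ccnd1*, which encodes cyclin D1, fell by 0.62 and *Cxcl12*, which encodes a chemokine, by 0.99 on the log2 scale (edgeR adjusted p = 0.0136 and 0.00475), both also over 8 pools (edgeR adjusted p = 0.0209 and 0.0147). The call of *Ccnd1* was lost without TCDD replicate 2 or 4 (edgeR adjusted p up to 0.0749), and that of *Xbp1* without TCDD replicate 3 or 4 or vehicle replicate 1 or 3 (edgeR adjusted p up to 0.0947). Mesenchyme markers were lower in the same pools (7 of 9 tested), and their part in this list was not tested. *Greb1*, a gene induced early by estrogen in breast cancer cells, fell with a log2 fold change of −1.60 (edgeR adjusted p = 0.0414). Its levels were 0.974, 1.13, 0.713 and 0.379 CPM in TCDD replicates 1 to 4, against 3.00, 0.900, 1.57 and 3.44 CPM in vehicle replicates 1 to 4, and the groups overlapped. The call of *Greb1* was lost without TCDD replicate 3 or 4 or vehicle replicate 1 or 4 (edgeR adjusted p up to 0.172). *Stc2* (log2 fold change −0.71) and *Rara*, a retinoic acid receptor gene (log2 fold change −0.58), fell over 7 pools (edgeR adjusted p = 0.00989 and 5.47e-04) but not over 8 (edgeR adjusted p = 0.305 and 0.221). Of the estrogen-related receptors, *Esrrg* fell (log2 fold change −0.62, edgeR adjusted p = 0.0419; 0.0508 over 8 pools), a call also lost with DESeq2 and when any 1 of the 7 pools except vehicle replicate 2 was left out (edgeR adjusted p up to 0.115), while *Esrra*, at a log2 fold change of 0.16, did not pass (edgeR adjusted p = 0.279).

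Of 16 tested genes that glucocorticoids induce in many tissues, 1 rose and 2 fell, and 13 did not pass the test (median log2 fold change −0.18). Across all tested genes 23.0% were called, 11.9% higher and 11.2% lower. *Tsc22d3*, which encodes the leucine zipper protein GILZ, was at 46.8, 40.2, 43.7 and 43.6 CPM in TCDD replicates 1 to 4, against 30.1, 28.7, 28.6 and 31.8 CPM in vehicle replicates 1 to 4. The groups did not overlap, and the log2 fold change was 0.51 (SE 0.0791, edgeR adjusted p = 3.52e-04; 8.71e-04 over 8 pools). *Klf15*, a transcription factor gene of amino acid metabolism, was at 1.51 to 1.92 CPM in the 4 TCDD pools and 2.93 to 6.45 CPM in the vehicle pools (log2 fold change −1.20, SE 0.291, edgeR adjusted p = 0.00804). *Ddit4*, which encodes an inhibitor of mTOR signaling, fell with a log2 fold change of −0.46 over 7 pools (edgeR adjusted p = 0.00800), but stood at 297 CPM in TCDD replicate 1, above every other pool, and the call was lost over 8 pools (edgeR adjusted p = 0.823). *Fkbp5* and *Per1*, often used as markers of glucocorticoid action, had log2 fold changes of −0.23 and −0.16 (edgeR adjusted p = 0.244 and 0.35). Those of *Mt1* and *Mt2*, −0.94 and −1.43, did not pass either (edgeR adjusted p = 0.14 and 0.0961). *Mt2* passed as lower with DESeq2 (DESeq2 adjusted p = 0.0177). With the replicate number as a block over all 8 pools, *Fkbp5* and *Mt2* passed as lower (edgeR adjusted p = 0.0378 and 0.0410).

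Enzymes that set the supply of active corticosteroid were mostly low. *Hsd11b1*, whose product makes active glucocorticoid, had no count in 7 pools and 0.133 CPM in TCDD replicate 1. *Hsd11b2*, whose product inactivates it, was at 0.0758 to 0.178 CPM in TCDD replicates 2 to 4 and 0.181 to 0.384 CPM in the vehicle pools, while TCDD replicate 1 was the highest pool at 0.443 CPM, and the gene was too low to test. *H6pd*, which supplies the cofactor of the first enzyme, rose by a log2 fold change of 0.36 over 7 pools (edgeR adjusted p = 0.0120) but not over 8 (edgeR adjusted p = 0.145) or without TCDD replicate 2 or 4 (edgeR adjusted p up to 0.0612). Of 7 tested genes of aldosterone-responsive sodium transport, 6 did not pass the test (median log2 fold change 0.05) and 1 fell, against 11.2% of all tested genes. The gene that fell was *Scnn1b*, a subunit of the epithelial sodium channel (log2 fold change −0.50, SE 0.101, edgeR adjusted p = 0.00248). It was at 22.4, 26.2, 24.2 and 24.1 CPM in TCDD replicates 1 to 4, against 30.5, 40.4, 33.7 and 35.7 CPM in vehicle replicates 1 to 4. The groups did not overlap. The other subunits, *Scnn1a* and *Scnn1g*, had log2 fold changes of 0.57 and 0.23 that did not pass the test (edgeR adjusted p = 0.111 and 0.248). *Scnn1a* passed as higher with DESeq2 (DESeq2 adjusted p = 0.0148) and without vehicle replicate 1 or 4 (edgeR adjusted p = 0.0431 and 0.0112), and *Sgk1*, the kinase that keeps the channel at the surface, passed without vehicle replicate 4 (edgeR adjusted p = 0.00375).

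The chaperones and coregulators that all nuclear steroid receptors share moved little, beside 11.9% higher and 11.2% lower among all tested genes. Of 16 chaperone genes 1 fell (median log2 fold change −0.04), and this was *Fkbp4*, which encodes the immunophilin FKBP52 that aids progesterone and glucocorticoid receptors (log2 fold change −0.26, SE 0.0800, edgeR adjusted p = 0.0319; 0.249 over 8 pools). Its call was lost without TCDD replicate 4 or vehicle replicate 1, 2 or 3 (edgeR adjusted p up to 0.143). *Hsp90ab1* and *Hsp90aa1*, the HSP90 genes, had log2 fold changes of −0.02 and −0.18 (edgeR adjusted p = 0.837 and 0.143). Of 15 coregulator genes 2 fell and 13 did not pass the test (median log2 fold change −0.11). The coactivator gene *Ncoa2* was at 87.3, 86.5, 65.9 and 76.7 CPM in TCDD replicates 1 to 4, against 104, 103, 105 and 88.8 CPM in vehicle replicates 1 to 4. The groups did not overlap, and the log2 fold change was −0.40 (SE 0.0957, edgeR adjusted p = 0.00804; 0.0333 over 8 pools). *Carm1*, which encodes a histone arginine methyltransferase, fell by 0.21 on the log2 scale over 7 pools (edgeR adjusted p = 0.0396; 0.389 over 8 pools), and also lost the call without TCDD replicate 4 or vehicle replicate 1, 2 or 3 (edgeR adjusted p up to 0.127).

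**Figure D5:**
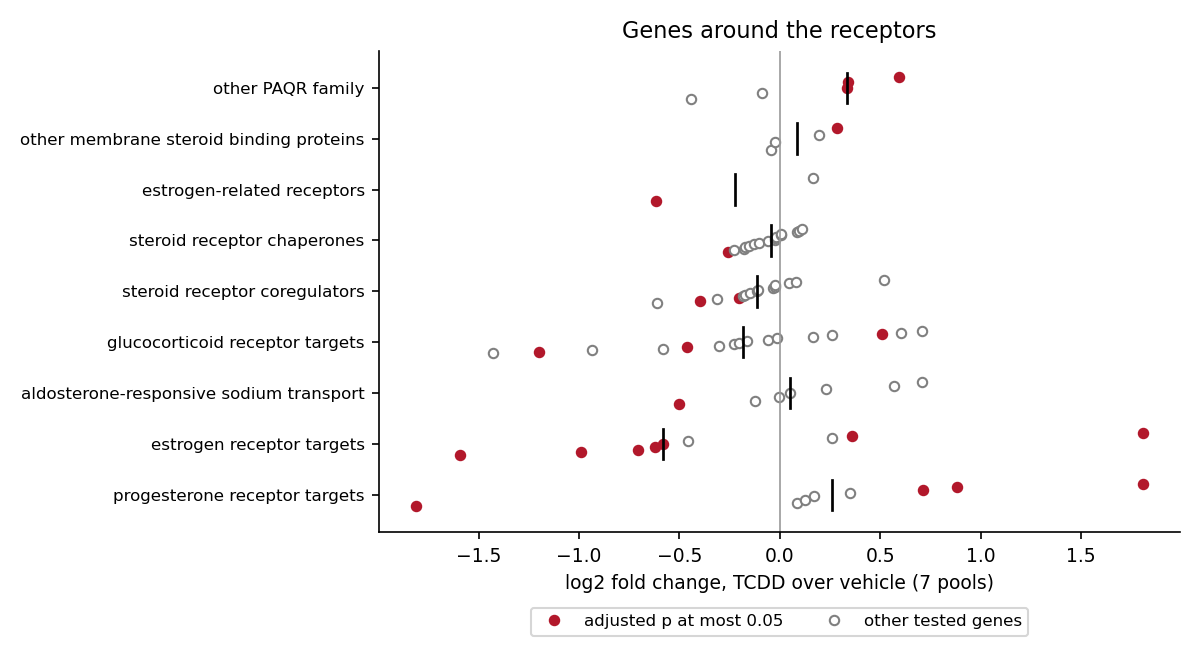
Log2 fold change of TCDD over vehicle, without TCDD replicate 1, for the tested genes of each list, 1 point per gene. Red points have an adjusted p of at most 0.05 and black lines are list medians. The median of the other PAQR genes is 0.33 and that of the estrogen receptor targets −0.58, while chaperones and coregulators lie near 0.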

How the data were processed

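RNA-seq libraries of 8 pools of UGS epithelium (4 TCDD, 4 vehicle), each on 2 lanes, were analysed. The authors aligned reads to GRCm38.p6 with HISAT2 2.1.0 and made the deposited counts with HTSeq 0.12.4, as raw counts of read pairs over exons on the gene's own strand. Lines that name no gene held 17.4 to 20.1% of a column and were left out. The deposited comparison tables hold the authors' own fold changes, p-values and F statistics and were not used. Lanes of a pool, which agreed within sampling noise (chi-square per gene 0.99 to 1.04), were averaged and counted as 1 sample. TCDD replicate 1 was left out. The study's methods remove an outlier TCDD sample without giving its number, and the description label of this pool alone names no comparison table.

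Genes were filtered with filterByExpr (minimum count 10, minimum total count 15), scaled by TMM and tested with the quasi-likelihood F-test of edgeR 4.0.16 in R 4.3.3, with Benjamini-Hochberg adjustment across the whole table and a threshold of 0.05. Depth was 22254896 to 28146766 counts per pool over both lanes. CPM per kb used the summed exon length of GENCODE M21. The script was tested on simulated data. Alternatives were all 8 pools, no filter, other scalings, summed lanes, DESeq2 1.42.0, TREAT at 1.5-fold, a replicate block and leaving out each pool. P-values set the difference between the groups against the spread between pools, which is estimated in part from all genes. They need not cover the spread between litters. The genes and lists were chosen with earlier results of these data known. Named were all 9 receptor genes, genes of each list by their adjusted p, fixed genes of corticosteroid and membrane steroid signaling, AHR targets, and the 5 genes most like *Paqr5* by each measure. Of these the text names a part, and results for a few genes are not reported here. Gene counts of near-identical or overlapping loci can be uncertain, but no receptor gene shares an exon with another gene on its strand.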

Additional observations from a re-analysis of the deposited data

Results flagged for a closer look

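Of 18 groups of 4 pools examined (9 receptor genes in each group), 2 held a pool far from the other 3, by Dixon's test, where chance gives about 1 in 20. *Pgr* was at 5.18 CPM in TCDD replicate 1, against 2.84 to 3.22 CPM in the other TCDD pools and 3.63 to 5.15 CPM in the vehicle pools. *Paqr6* was at 14.9 CPM in TCDD replicate 2, against 11.5 to 12.0 CPM in the other TCDD pools and 7.27 to 10.6 CPM in the vehicle pools. The cause of either value was not tested.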

How the results depend on the processing

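Under 17 alternatives the log2 fold change of *Paqr5* stayed between 1.67 and 1.95, and no log2 fold change of a receptor gene that had been called changed sign. Receptor genes called higher, apart from *Paqr5*, numbered 2 over 7 pools, 1 over all 8 pools, 0 by TREAT, 1 with the replicate number as a block, 1 with that block over all 8 pools, and 0 to 2 when 1 pool was left out in turn. *Paqr8* lost the call with the block (edgeR adjusted p = 0.11, and 0.138 over 8 pools), and *Paqr6* kept it. Receptor genes called lower numbered 0, but 1 (*Pgr*) with upper-quartile scaling and without a scaling factor (edgeR adjusted p = 0.0430 and 0.0392), and 0 to 1 when 1 pool was left out. Over all genes, 1688 were higher and 1588 lower, against 1041 and 843 over all 8 pools, 368 and 205 by TREAT, 1480 and 1898 with upper-quartile scaling, 1435 and 1974 without a scaling factor, 1109 and 979 with the block over all 8 pools, and 1189 to 1633 and 1061 to 1639 when 1 pool was left out. Deviations of same-numbered pools from their group means had r = −0.19 to −0.06 over 7 pools and −0.18 to 0.40 over 8 pools, and 0 of 3 and 1 of 4 TCDD pools correlated best with the vehicle pool of their number, so the numbers were not taken as a pairing. As an alternative chosen after seeing the data, each pool was also left out of the 8: *Paqr6* then lost its call without TCDD replicate 2 or vehicle replicate 1, 2 or 4 (edgeR adjusted p = 0.0853, 0.0742, 0.0788 and 0.0623). At 6 to 29 counts a pool, *Esr2* allows no statement on a change.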
